A study of Mus musculus with 6 samples.

Results

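The 39 genes described here build, sense and export sterols and fatty acids. They were taken by gene symbol from the deposited table, and all 39 were among its 13595 genes. In pathway order they comprise 5 genes of SREBP control, 17 enzymes from the mevalonate pathway to cholesterol, Acat2 and Stard4, 10 genes of fatty acid synthesis and 5 genes of the LXR receptors and sterol efflux. RNA was sequenced from CD31-positive cells, a selection for an endothelial surface protein, that had been isolated from the liver of C57BL6/J mice aged 4 weeks and then cultured. The treatment shared by all 6 cultures was 100 µM indoxyl sulfate, a tryptophan metabolite that activates the aryl hydrocarbon receptor, with hypoxia and nutrient deprivation for 6 hours. Each sex label covered 3 libraries, numbered 4, 5 and 6, and no library of untreated or normoxic cells was analysed here. The only comparison is therefore sex within the treated state. Whether a number stands for a mouse, an isolation or a well is not given in the labels, so the errors below measure only the spread between these libraries, which may be technical.

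Cells control sterol synthesis through the SREBP transcription factors, membrane proteins that the escort Scap carries out of the endoplasmic reticulum when sterols are scarce. Insig proteins hold the complex back when sterols are plentiful. The protein of Srebf2 mainly drives cholesterol genes, and forms from Srebf1 mainly drive fatty acid genes. In the opposite direction, the LXR receptors respond to oxysterols and raise genes of sterol export. Several enzymes of both routes use molecular oxygen directly, among them those of Sqle, Cyp51, Msmo1, Sc5d, Scd1, Scd2, Fads1 and Fads2.

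Library depth ran from 22303270 to 31189363 recovered reads. One library stood apart within its group: male 4 differed from male 5 and male 6 by a median of 0.182 and 0.179 (absolute log2 difference, genes at 5 or above in both libraries), against 0.0682 between male 5 and male 6 and from 0.071 to 0.102 among the female-labelled libraries. Xist followed the sex labels, with values from 234 to 324 in the female-labelled libraries and from 0.124 to 0.458 in the male-labelled ones. Y-linked transcripts were nevertheless present in all 3 female-labelled libraries. Of 4 such genes, Ddx3y (50.2, 48.5 and 57.8 in the female-labelled and 47.2, 76.3 and 47.4 in the male-labelled libraries) and Uty overlapped between the labels and were not called. Eif2s3y and Kdm5d were lower in the female-labelled libraries, with means of 29.8 against 58.1 and of 19.1 against 34.9 (log2 fold change -0.94 and -0.83, limma adjusted p 5.76e-06 and 0.000129). The Y-linked transcripts go against the female label, and whether those cultures held female cells only was not tested. Below, female-labelled and male-labelled name the labels alone, and every direction rests on them. Markers of the cell types also moved with the label. Of 17 tested endothelial markers, 14 were called lower and 2 higher in the female-labelled libraries, and the summed level of all 20 ran from 2646 to 2719 in the male-labelled and from 1306 to 1370 in the female-labelled libraries. Pecam1, which encodes CD31, was at 405, 391 and 423 against 73.5, 73.8 and 74.5. The 12 stellate, mural and fibroblast markers in the table summed to 1776 to 2175 against 3329 to 4083, with 5 called higher and 7 lower. Acta2 (means of 78.6 and 1694) and Tagln (52.1 and 1057), both higher, carried most of the female-labelled sum. Those called lower included Col1a1 (552 and 345), Col1a2 (937 and 335) and Pdgfrb (133 and 14.3). The 8 sinusoidal markers summed to 490 to 529 against 7.74 to 9.11. Lyve1, with means of 498 and 4.99, carried nearly all of the male-labelled sum and a smaller part of the female-labelled one. Stab1 was at 15.7 and 1.95, and Stab2, which was too low to be tested, was at 0.0658 and 0.258. Clec4g and Fcgr2b held at most 3 reads in any library. Biliary and mesothelial markers summed to 724 to 897 against 538 to 541, with 4 of 6 tested called higher and 2 lower. Krt19 (means of 461 and 116) and Sox9 (353 and 66.3) were the 2 lower. The 4 higher were Krt7 (1.84 and 9.19), Msln (19.4 and 332), Upk3b (0 and 3.275) and Wt1 (0.101 and 12.8). Hepatocyte markers were near 0 except Ass1: Alb reached at most 0.600, and Cps1 and Cyp3a11 held at most 3 reads in any library. Macrophage markers summed to 7.51 to 10.1 against 13.2 to 15.8, with 4 of 8 at or under 3 reads in each library. Adipoq and Plin1, which define adipocytes, were at or under 3 reads too, while Fabp4, which endothelial cells also express, was lower in the female-labelled libraries. The part of these markers in the results below was not tested, and in bulk RNA fewer cells of a type cannot be told apart from less RNA per cell.

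Of the 39 genes, 29 were called, 19 higher and 10 lower in the female-labelled libraries (limma on log2 of the normalized read count plus 1, Benjamini-Hochberg adjusted p under 0.05 over all genes tested). Calls were common in this contrast: 69.3% of all 12568 tested genes were called, 34.6% as higher and 34.6% as lower. The members' share called, 74.4%, was thus close to that of all genes, with 48.7% higher and 25.6% lower. The libraries of the 2 labels did not overlap for 29 members either, 19 with the female-labelled libraries above and 10 below, where 74.1% of all tested genes did not overlap, 37.1% above and 37.0% below. The median log2 fold change was 0.23 over the members and 0.01 over all tested genes, and the median absolute value was 0.62 against 0.46. When a log2 change of 1 or more in size was also required, 8 members (20.5%) were higher, against 8.51% of all genes, and 3 (7.69%) were lower, against 12.1%. In the authors' deposited table, 20 members passed a false discovery rate of 0.05, with 13 of them higher and 7 lower, where 25.8% of all its genes passed. All 20 were among the 29 called here. The other 9, which did not pass there, were Scap, Sqle, Acly, Acss2, Acaca, Scd1, Fads1, Fads2 and Abcg1. Without male 4, 20 members were called higher and 11 lower, including all 29. The count over all genes rose in that fit too, from 8704 to 9496.

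**Figure D1:**
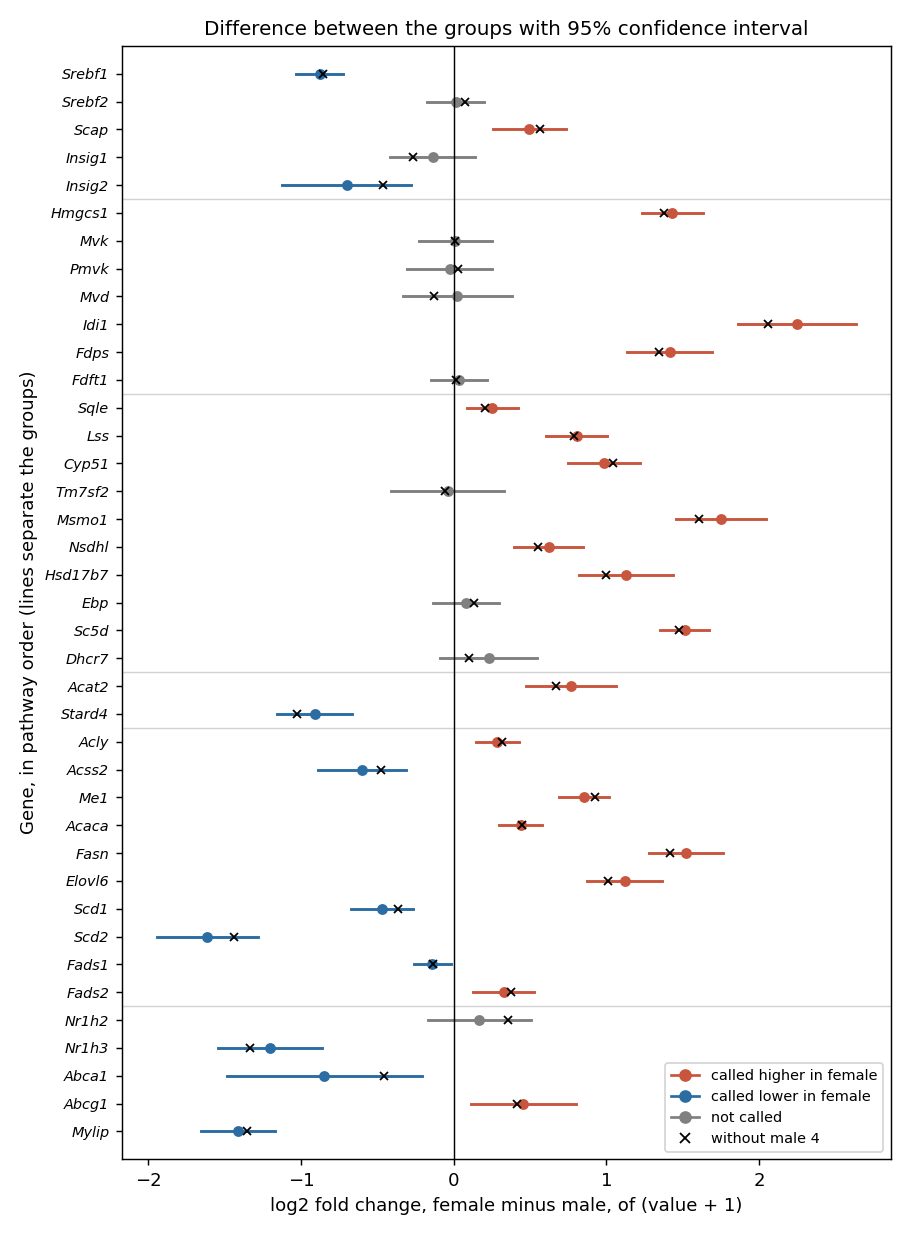
Log2 fold change (female minus male, of value + 1) of each of the 39 genes in pathway order, with bars for the 95% confidence interval from limma, colours for the call and crosses for the estimate without male 4. Sterol enzymes are either right of 0 or at it, with Idi1 farthest right at 2.25, while Scd2 (-1.61), Mylip (-1.41) and Nr1h3 (-1.20) lie farthest left.

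Among the genes that control SREBP, Srebf1 was lower and Srebf2 did not pass the test. Srebf1 was at 122, 111 and 123 in the male-labelled libraries 4, 5 and 6 and at 65.1, 66.4 and 60.5 in the female-labelled ones, in the same order of replicates as throughout. The groups lay well apart, by -0.88 on the log2 scale (SE 0.07, limma adjusted p 8.79e-06). Srebf2 had overlapping groups, at 87.8, 74.4 and 79.6 against 84.8, 83.5 and 75.4, and the 95% confidence interval of its log2 difference ran from -0.17 to 0.20. The ratio of Srebf2 to Srebf1 within a library, which does not depend on how libraries were scaled, was 0.680 ± 0.0370 in the male-labelled libraries and 1.27 ± 0.0292 in the female-labelled ones (SD, n = 3). Scap, the escort of both factors, was higher, at 62.8, 55.3 and 52.7 against 91.7, 79.9 and 71.2 (log2 fold change 0.50, SE 0.10, limma adjusted p 0.00286). Of the retention factors, Insig2 was lower, with 94.6, 55.8 and 59.0 against 38.7, 39.6 and 46.0 (log2 fold change -0.70, SE 0.18, limma adjusted p 0.00866). Here male 4 was the high library, and without it the log2 fold change was -0.46 and still called. Insig1, itself a well-known SREBP target, overlapped at 41.4, 52.8 and 56.0 against 47.6, 47.7 and 40.4 (log2 fold change -0.14, limma adjusted p 0.342). Male 4 was its lowest male-labelled library, and without male 4 the gene was called lower (-0.26, limma adjusted p 0.0139).

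**Figure D2:**
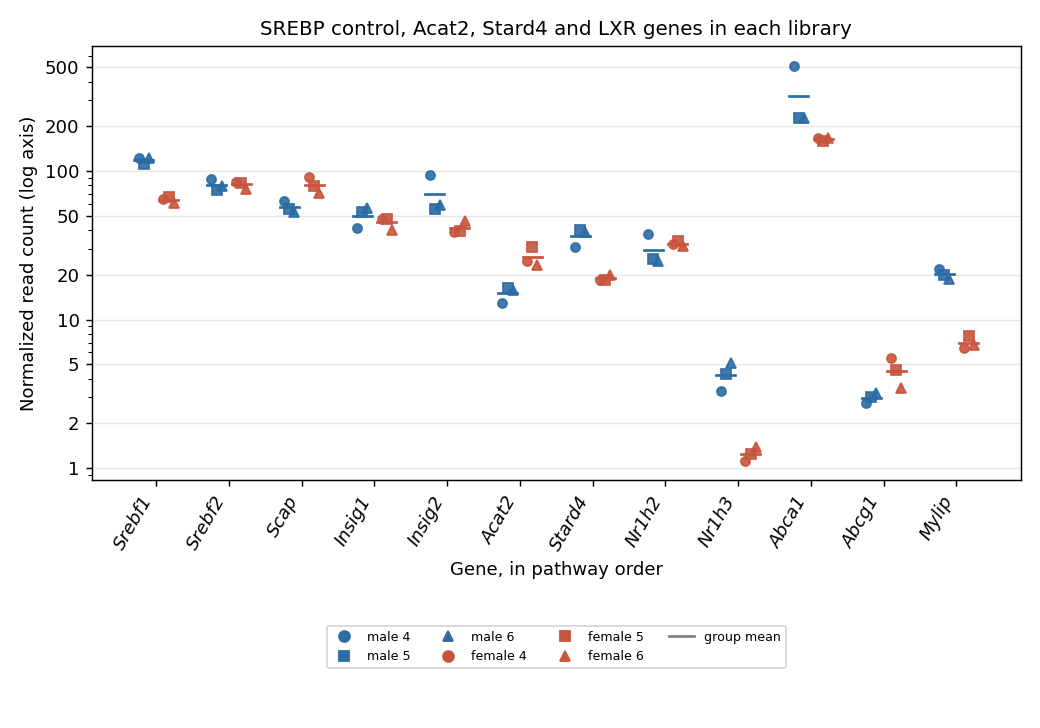
Normalized read count (log axis) of the 5 SREBP control genes, Acat2, Stard4 and the 5 LXR and efflux genes in each of the 6 libraries, with a line at each group mean. Srebf1, Stard4, Nr1h3 and Mylip show female-labelled libraries below all male-labelled ones, Srebf2 overlaps, and male 4 stands high in Abca1 at 512.

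The first stretch of sterol synthesis, from acetyl units to squalene, split into 3 genes that were higher and 4 that were not called, so that 42.9% were called, against 69.3% of all genes. Hmgcs1 encodes the cytosolic synthase that makes the precursor of mevalonate. It was at 23.5, 27.6 and 25.2 in the male-labelled libraries and at 64.5, 73.9 and 72.6 in the female-labelled ones, a ratio of 2.77. Every female-labelled library exceeded every male-labelled one by a wide margin (log2 fold change 1.43, SE 0.09, limma adjusted p 2.18e-06). Idi1, the isomerase that converts isopentenyl diphosphate, showed the largest rise of all members, from 6.967, 10.98 and 10.56 to 50.9, 52.9 and 41.3. The ratio of means was 5.09 (log2 fold change 2.25, SE 0.17, limma adjusted p 7.17e-06), and without male 4, its lowest library, the ratio was 4.49. Fdps, which joins isoprene units into farnesyl diphosphate, was at 12.9, 15.4 and 14.8 against 44.0, 43.0 and 33.5 (ratio 2.80, log2 fold change 1.42, SE 0.12, limma adjusted p 1.59e-05). For Idi1 and Fdps alike, female 6 was the lowest of its group and still above every male-labelled library. Idi1 and Fdps share 25.3% and 26.2% of their 50-base words with other annotated transcripts, mostly predicted genes, and Hmgcs1 shares 11.6%, so their values are uncertain to that extent.

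Between these steps, the kinases and the decarboxylase of mevalonate were not called. Mvk (mevalonate kinase) was at 10.6, 9.80 and 11.6 against 10.2, 11.8 and 10.2. Pmvk (phosphomevalonate kinase) was at 6.055, 4.804 and 5.827 against 5.98, 5.39 and 4.94. Mvd (the decarboxylase) was at 7.17, 10.8 and 9.85 against 8.76, 10.7 and 8.60. All 3 overlapped between the groups, and the 95% confidence intervals of their log2 differences were -0.23 to 0.25 for Mvk, -0.30 to 0.25 for Pmvk and -0.33 to 0.38 for Mvd. Fdft1, squalene synthase and the first step given over to sterols alone, was at 33.3, 33.3 and 36.1 against 34.4, 38.0 and 33.1, with an interval of -0.15 to 0.22. It shares 26.5% of its 50-base words with other transcripts. These intervals leave out a change of the size seen in Hmgcs1, Idi1 or Fdps, whose lower bounds were 1.23, 1.86 and 1.14.

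From squalene to cholesterol, 7 of 10 enzymes were called higher, none lower, and 3 were not called, where 69.3% of all genes were called and 34.6% were higher. The largest change of this stretch was in C4 demethylation. Msmo1, the oxidase of that step, was at 15.1, 20.5 and 21.3 against 68.4, 68.8 and 60.2 (ratio 3.47, log2 fold change 1.75, SE 0.13, limma adjusted p 6.37e-06). Its partners in the same step followed to a lesser extent: Nsdhl, the dehydrogenase, was at 16.80, 19.18 and 20.02 against 31.4, 29.8 and 26.6 (log2 fold change 0.62, SE 0.10, limma adjusted p 0.000579). Hsd17b7, the ketoreductase, was at 11.9, 15.3 and 16.9 against 35.5, 34.4 and 29.4 (log2 fold change 1.13, SE 0.13, limma adjusted p 0.000108). In each of these 3 genes male 4 was the lowest library of its group and female 6 the lowest of the other, with no overlap. Sc5d, the desaturase near the end of the route, was at 19.2, 21.4 and 20.3 against 59.3, 61.4 and 58.6, a ratio of 2.94 with little spread in either group (log2 fold change 1.51, SE 0.07, limma adjusted p 5.28e-07).

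The steps before them, the epoxidation and cyclisation of squalene and the removal of the C14 methyl group, were also higher. Cyp51, the C14 demethylase, was at 27.2, 24.3 and 23.8 against 51.0, 57.2 and 44.5 (log2 fold change 0.99, SE 0.10, limma adjusted p 5.03e-05). Lss, which folds the squalene epoxide into lanosterol, was at 10.1, 9.91 and 11.1 against 19.3, 18.8 and 18.5 (log2 fold change 0.81, SE 0.09, limma adjusted p 5.88e-05). Sqle, the epoxidase and a known control point of the pathway, moved least of those called, at 30.4, 34.4 and 32.6 against 39.3, 38.2 and 39.04 (ratio 1.20, log2 fold change 0.25, SE 0.07, limma adjusted p 0.0130). Its groups did not overlap, but its change was far below that of Msmo1 or Sc5d, as its interval of 0.09 to 0.42 shows. Ebp, the sterol isomerase, was at 16.4, 14.5 and 14.6 against 17.2, 14.8 and 16.3 and was not called (interval -0.14 to 0.30). Dhcr7, which makes cholesterol from its last precursor, was at 2.90, 4.39 and 3.88 against 4.77, 4.24 and 4.46, also with overlap (interval -0.09 to 0.55). Tm7sf2, a C14 reductase, was weakly expressed, at 1.41, 1.68 and 1.34 against 2.03, 1.19 and 1.09, on 23 to 49 reads per library, and its interval of -0.41 to 0.33 is the widest among the 7 sterol enzymes that were not called. Nsdhl and Ebp are the X-linked sterol enzymes here, and 1 of these 2 was called.

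**Figure D3:**
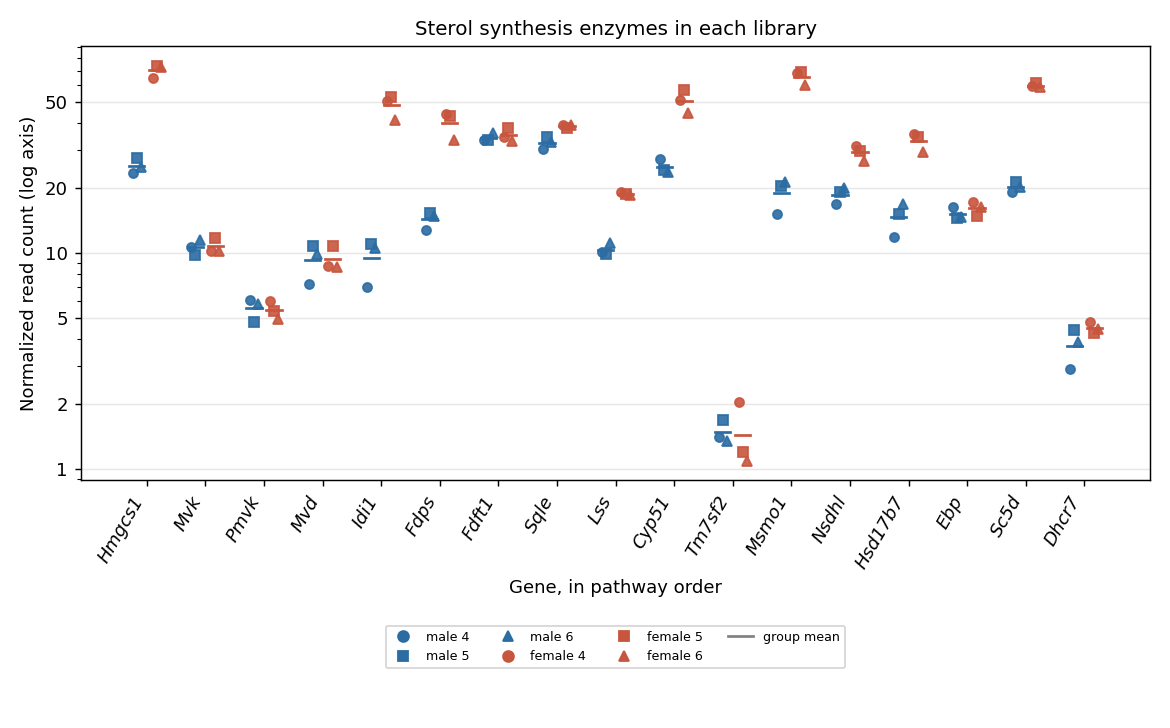
Normalized read count (log axis) of the 17 sterol enzymes in pathway order in each of the 6 libraries, with a line at each group mean. The groups separate for 10 genes, among them Hmgcs1, Idi1, Fdps, Msmo1 and Sc5d, and overlap for 7, among them Mvk, Pmvk, Mvd and Fdft1.

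In all, 10 of the 17 sterol enzymes were higher, none was lower and 7 were not called, with groups that did not overlap in the same 10. That is 58.8% called, against 69.3% of all tested genes, and 58.8% higher, against 34.6%. Groups that did not overlap made up 74.1% of all tested genes. Neighbouring steps thus came to differ in their proportion within a library. The ratio of Idi1 to Fdft1 was 0.209, 0.330 and 0.293 in the male-labelled libraries and 1.48, 1.39 and 1.25 in the female-labelled ones. That of Hmgcs1 to Mvk was 2.40 ± 0.361 against 6.56 ± 0.476, and that of Msmo1 to Ebp 1.27 ± 0.296 against 4.10 ± 0.488 (SD, n = 3). The groups did not overlap in any of these ratios, which were chosen after the values of the single genes were seen and carry no test.

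**Figure D4:**
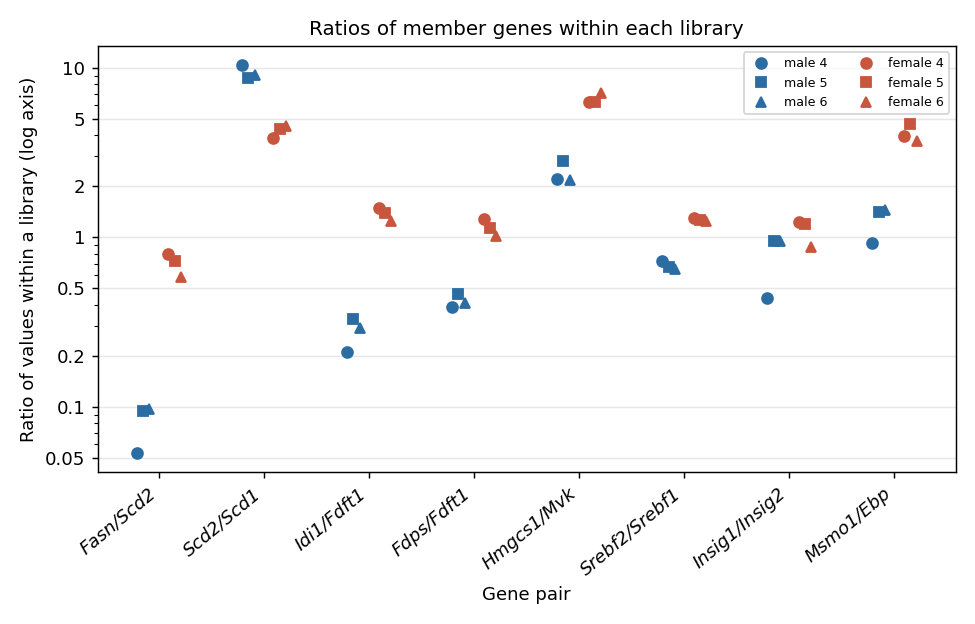
Ratio of the normalized read counts of 2 member genes within each library (log axis), for 8 pairs chosen after their values were seen. The ratio of Fasn to Scd2 lies between 0.0535 and 0.0968 in the male-labelled libraries and between 0.580 and 0.801 in the female-labelled ones, and only the ratio of Insig1 to Insig2 overlaps between the groups.

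Promoter sequence is shown for 4 of these enzymes because neighbours in the pathway, with promoters of related make-up, differed in their calls. The sequences come from the RefSeq promoter table (GRCm38.p6), where 31 of the 39 genes had an entry; Fdps, Fdft1, Sqle, Stard4, Scd1, Scd2, Fads1 and Abcg1 had none. Each run is the 250 bases before the annotated start site, 5′ to 3′ on the gene's strand. Capitals mark the sterol regulatory element TCACNCCAC, bound by SREBPs, and the box CCAAT, on either strand, bound by NF-Y, a frequent partner of SREBPs. Hmgcs1 and Idi1 stand for early genes that were higher, Msmo1 for a late one, and Mvk for a gene that was not called. The run of Hmgcs1 lies at chr13:119690101-119690350 (plus strand), that of Idi1 at chr13:8885356-8885605 (plus strand), that of Msmo1 at chr8:64733579-64733828 (minus strand) and that of Mvk at chr5:114444019-114444268 (plus strand).
Hmgcs1: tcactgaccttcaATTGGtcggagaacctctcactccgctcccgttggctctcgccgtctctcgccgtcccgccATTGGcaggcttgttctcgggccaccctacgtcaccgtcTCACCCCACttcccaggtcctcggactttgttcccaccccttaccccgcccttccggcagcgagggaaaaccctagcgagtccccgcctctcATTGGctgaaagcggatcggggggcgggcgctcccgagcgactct
Idi1: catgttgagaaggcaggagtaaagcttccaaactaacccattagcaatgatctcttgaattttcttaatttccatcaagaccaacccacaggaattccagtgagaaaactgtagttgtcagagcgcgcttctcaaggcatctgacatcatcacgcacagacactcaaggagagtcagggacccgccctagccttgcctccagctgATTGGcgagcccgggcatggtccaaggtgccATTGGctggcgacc
Msmo1: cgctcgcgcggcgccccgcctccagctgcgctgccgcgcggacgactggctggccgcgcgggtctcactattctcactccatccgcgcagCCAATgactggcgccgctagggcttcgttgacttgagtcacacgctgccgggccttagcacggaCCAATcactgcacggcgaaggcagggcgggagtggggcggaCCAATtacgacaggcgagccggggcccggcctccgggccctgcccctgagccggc
Mvk: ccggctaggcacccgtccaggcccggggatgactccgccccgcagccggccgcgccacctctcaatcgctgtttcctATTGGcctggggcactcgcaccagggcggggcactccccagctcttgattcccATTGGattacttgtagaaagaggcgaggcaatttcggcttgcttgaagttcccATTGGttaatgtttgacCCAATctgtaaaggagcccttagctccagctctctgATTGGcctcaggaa

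The Hmgcs1 run held 1 sterol regulatory element and 3 CCAAT boxes, that of Idi1 2 boxes, that of Msmo1 3 boxes and that of Mvk 5. Searched over the full windows, 250 bases before to 50 after the start, the box was in at least 1 window of each of the 14 sterol enzymes with an entry, 8 that were higher (Hmgcs1, Idi1, Lss, Cyp51, Msmo1, Nsdhl, Hsd17b7 and Sc5d) and 6 that were not called (Mvk, Pmvk, Mvd, Tm7sf2, Ebp and Dhcr7). As the box was in all 14, its presence could not separate the called enzymes from the others, and its part in the calls was not tested. Among the other members it was in 9 of 17, Fasn and Srebf1 included. By window, 24 of the members' 41 windows (58.5%) and 37.4% of all 32851 windows in the table held it on either strand. The sterol regulatory element in this spelling was in 1 member window, that of Hmgcs1, and in 1.24% of all windows. An E-box, CACGTG, was in 7 member windows (17.1%), of Scap, Insig1, Hsd17b7, Sc5d, Dhcr7 and Abca1, and in 7.15% of all. No match of 1 motif overlapped a match of another. A match describes these letters only, and other spellings of each element were not searched.

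The enzyme that supplies acetoacetyl-CoA and a carrier of finished sterol moved in opposite directions. Acat2, the cytosolic thiolase, was at 12.9, 16.4 and 15.8 against 24.9, 30.8 and 23.5 (log2 fold change 0.77, SE 0.13, limma adjusted p 0.000806). It shares 39.1% of its 50-base words with other transcripts, chiefly its close copy Acat3 and the neighbouring Tcp1, so reads could have been divided between them. Stard4, a cytosolic sterol carrier known as an SREBP target, was lower, at 31.0, 40.3 and 38.7 against 18.5, 18.4 and 19.9. Both groups were compact and far apart (log2 fold change -0.91, SE 0.11, limma adjusted p 0.000102).

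All 10 genes of fatty acid synthesis were called, 6 higher and 4 lower, where 69.3% of all genes were called, 34.6% in each direction. By the authors' false discovery rate, only Me1, Fasn, Elovl6 and Scd2 of these passed 0.05. Acly, Acss2, Acaca, Scd1, Fads1 and Fads2 did not, with rates from 0.232 (Acss2) to 0.732 (Fads1). Fasn, the synthase that builds palmitate, was at 98.6, 117 and 128 in the male-labelled libraries and at 344, 350 and 297 in the female-labelled ones. That is a ratio of 2.88 with no overlap (log2 fold change 1.52, SE 0.11, limma adjusted p 4.86e-06). Elovl6, which lengthens palmitate to stearate, was at 12.7, 15.5 and 16.8 against 32.9, 34.3 and 33.4 (log2 fold change 1.12, SE 0.11, limma adjusted p 2.94e-05). Me1, the malic enzyme that supplies NADPH, was at 154, 132 and 135 against 248, 258 and 257 (log2 fold change 0.86, SE 0.07, limma adjusted p 1.37e-05). Acaca, which commits acetyl-CoA to the route as malonyl-CoA, and Acly, which makes cytosolic acetyl-CoA from citrate, rose less. Acaca was at 83.5, 81.5 and 81.8 against 113, 118 and 106 (log2 fold change 0.44, limma adjusted p 0.000287), and Acly at 234, 219 and 222 against 283, 283 and 260.5 (log2 fold change 0.29, limma adjusted p 0.00287). Me1 and Acaca share 28.3% and 30.4% of their 50-base words with other transcripts, mostly predicted genes. Acss2, the alternative source of acetyl-CoA from acetate, was lower, at 13.6, 10.2 and 10.2 against 6.97, 7.29 and 6.93 (log2 fold change -0.60, SE 0.13, limma adjusted p 0.00269).

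The desaturases went the other way from the synthase or changed little. Scd2, one of the stearoyl-CoA desaturases that place the first double bond, was the most abundant member per kilobase of transcript in both groups, at means of 269.5 and 86.9 in the male- and female-labelled libraries. By library it was at 1844, 1241 and 1324 against 429.5, 481 and 511. Male 4 was the highest, yet without it the means still differed 2.71-fold, against 3.10-fold with it (log2 fold change -1.61, SE 0.14, limma adjusted p 2.03e-05). Scd1 was lower by a smaller step, at 178, 142 and 146 against 111, 110.2 and 112 (log2 fold change -0.47, SE 0.09, limma adjusted p 0.00155). The ratio of Scd2 to Scd1 was 9.40 ± 0.837 against 4.26 ± 0.364 (SD, n = 3). These paralogs share only 4.56% (Scd1) and 3.97% (Scd2) of their 50-base words with other transcripts. The ratio of Fasn to Scd2 was 0.0535, 0.0946 and 0.0968 in the male-labelled libraries and 0.801, 0.729 and 0.580 in the female-labelled ones, so that the balance of synthase to desaturase transcript was 8.62 times as high in the latter. Fads2, the first desaturase of the polyunsaturated route, was slightly higher, at 36.0, 33.8 and 30.9 against 38.9, 45.4 and 43.0 (log2 fold change 0.33, limma adjusted p 0.00946). Fads1, the next desaturase, was at 109, 107 and 109 against 96.1, 101 and 98.7 and only just passed (log2 fold change -0.14, limma adjusted p 0.0480). Its call was lost under quantile normalization, DESeq2 (adjusted p 0.0535), the replicate block and all leave-one-out fits but that without male 4.

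**Figure D5:**
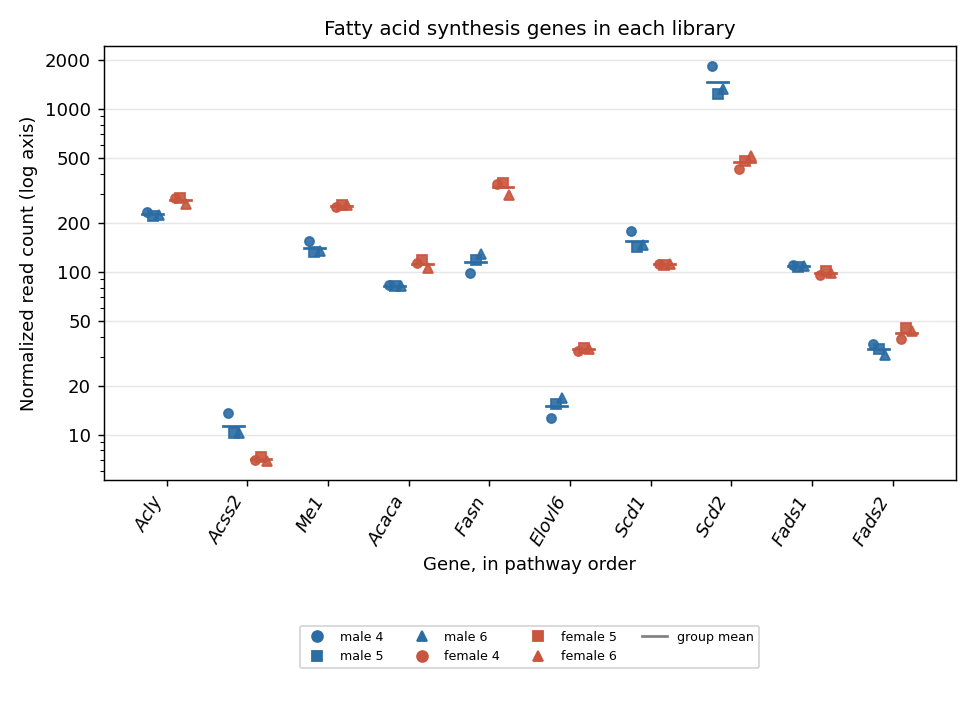
Normalized read count (log axis) of the 10 fatty acid synthesis genes in each of the 6 libraries, with a line at each group mean. Fasn, Elovl6 and Me1 are higher in all 3 female-labelled libraries, Scd2 is lower in all 3, and male 4 is the highest library for Scd2 at 1844.

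Of the 5 genes of LXR and sterol efflux, 3 were lower, 1 higher and 1 not called, beside 69.3% called and 34.6% lower among all genes. Nr1h3, the LXR form typical of liver and macrophages, was weakly expressed and lower, at 3.28, 4.27 and 5.09 against 1.12, 1.24 and 1.38. The ratio of means was 3.38, on 27 to 29 reads per female-labelled library (log2 fold change -1.20, SE 0.15, limma adjusted p 0.000134). Nr1h2, the widely expressed form, overlapped at 37.5, 25.7 and 24.6 against 32.3, 34.0 and 31.1 (log2 fold change 0.17, limma adjusted p 0.330), and male 4 was the high library. Without male 4 it was called higher (0.35, limma adjusted p 0.00119). Mylip, an LXR target that encodes a ubiquitin ligase for lipoprotein receptors, was at 22.02, 19.98 and 18.82 against 6.47, 7.78 and 6.74, with a ratio of 2.90 and no overlap (log2 fold change -1.41, SE 0.11, limma adjusted p 7.17e-06).

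The efflux transporters themselves gave less secure results. Abca1, which passes cholesterol to apolipoproteins, was at 512, 226 and 226 against 167, 160.5 and 168. It passed as lower, at -0.85 on the log2 scale (SE 0.28, limma adjusted p 0.0244), and male 4 stood far above the other libraries. Without male 4 the difference was -0.45 with a smaller adjusted p (8.21e-06), while without any one of the female-labelled libraries the call was lost (adjusted p from 0.0626 to 0.0676). Abcg1, a transporter that delivers cholesterol to lipoprotein particles, was low, at 2.74, 3.01 and 3.18 against 5.48, 4.60 and 3.47. It passed as higher (log2 fold change 0.46, SE 0.15, limma adjusted p 0.0241). Abca1, Mylip and Srebf1, all textbook LXR targets, went the other way, while the LXR-linked Pltp was higher too (log2 fold change 0.53). The call of Abcg1 was lost without male 5 (adjusted p 0.0534), female 4 (0.0854) or female 5 (0.0716).

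The places of single libraries within their groups were counted over the called members. Among the 19 genes called higher, male 4 was the lowest male-labelled library in 12 and the highest in 6, and female 6 was the lowest female-labelled library in 14 and the highest in 0. Among the 10 called lower, male 4 was the highest male-labelled library in 7 and the lowest in 2, and female 6 was the highest female-labelled library in 6 and the lowest in 2.

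Around these members, 64 further genes of the same pathways were looked up and 55 were in the table. Of the 55, 14 (25.5%) were called higher and 23 (41.8%) lower, against the 34.6% of all genes in each direction given above, with a median log2 fold change of -0.11. With a log2 size of at least 1, 3 were higher and 4 lower. Lbr, a C14 reductase of sterol synthesis, was not called (39.3 against 39.8 on average), and neither was Erg28, listed as 0610007P14Rik (15.2 against 12.7 on average). Of the proteases that release SREBPs from the membrane, Mbtps2, the site-2 protease, was higher (log2 fold change 0.38, SE 0.07, limma adjusted p 0.000955) and Mbtps1, the site-1 protease, was lower (log2 fold change -0.43, SE 0.07, limma adjusted p 0.000584). In the isoprenoid branch 2 of 5 were lower (Ggps1 and Nus1) and none higher.

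Of 12 genes that store, move or hydrolyse sterols, 7 (58.3%) were lower, 1 was higher and 4 were not called, where 34.6% of all genes were lower. Gramd1b, a sterol transfer protein at membrane contacts, fell from 8.71, 8.12 and 8.09 to 2.86, 2.87 and 2.23 (log2 fold change -1.35, SE 0.11, limma adjusted p 1.46e-05). Lipa, the lysosomal cholesteryl ester hydrolase, had a log2 fold change of -0.95, and Scarb1, a receptor for high-density lipoprotein, was the gene that was higher (0.72). Among 5 oxysterol and LXR-linked genes, 3 were lower (Cyp27a1, Cyp7b1 and Lpcat3) and 1 higher, with the same 34.6% in each direction over all genes. Pltp was the 1 higher (14.1 against 20.9 on average, log2 fold change 0.53, limma adjusted p 0.004).

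In fatty acid supply and elongation, 8 of 15 genes (53.3%) were higher and 4 (26.7%) lower, beside 34.6% in each direction among all genes. Mid1ip1, which activates the enzyme of Acaca, was at 8.336, 10.29 and 9.499 against 20.4, 19.9 and 19.8 (log2 fold change 1.02, SE 0.10, limma adjusted p 2.96e-05). Hacd4, listed as Ptplad2, a dehydratase of the elongation cycle, was at 7.88, 5.07 and 5.09 against 14.5, 14.5 and 17.1 (log2 fold change 1.24, SE 0.16, limma adjusted p 0.000187). Elovl5, the elongase of polyunsaturated chains, was lower, at 149, 146 and 149.9 against 72.5, 75.2 and 69.6 (log2 fold change -1.03, SE 0.06, limma adjusted p 1.35e-06). Of 10 genes for fatty acid activation and glycerolipid synthesis, 6 were lower and 1 higher, so that 70.0% were called, close to the 69.3% of all genes. The largest change was that of Dgat2, which makes triglyceride, at 18.6, 18.9 and 20.1 against 5.64, 4.55 and 5.18 (log2 fold change -1.72, SE 0.10, limma adjusted p 1.96e-06). Dgat1, the other acyltransferase of that step, was lower too (-0.67), as were Lpin1 (-0.84) and Gpam (-0.73), which act before it. Agpat2, of the same 10 genes, was the 1 higher (9.60 against 12.8 on average, log2 fold change 0.40, limma adjusted p 0.0334).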

How the data were processed

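Poly(A) RNA was made into libraries with the Kapa HyperPrep kit, per the labels' protocols. The submitters' processing notes name Bowtie2, RSEM, edgeR and the mm39 build, without roles or versions. The deposited values are a signal, read counts after a scaling by the authors: 100% of them, in all 6 columns, were whole multiples (within 0.01) of their column's smallest value above 0. Dividing by that value gave the reads. The rule behind the table's gene filter is not given in the sources used here. Per the file headers, the table also holds a score (a signed fold change by the authors) and a p-value with its false discovery rate. There were 0 value columns without a sample.

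limma 3.58.1 (R 4.3.3, eBayes with trend) was fitted to log2(value + 1). A gene was tested where 3 or more libraries reached a value of 1, which 12568 genes and all 39 members did. Fold changes on this scale understate changes of weak genes. p-values were adjusted over all 12568 genes. Alternatives were RLE size factors, quantile normalization, other filters, a pseudocount of 0.1, edgeR 4.0.16, DESeq2 1.42.0 and voom on recovered reads, the replicate number as a block, a fold threshold and leaving out each library. edgeR's quasi-likelihood test on these reads made 8651 calls. Each fit was first run on simulated reads with the same dispersion for every gene and no outlying library such as male 4. That run therefore does not show how the fits behave on these data. Shared 50-base words and transcript lengths (longest coding transcript) came from GENCODE M21 (GRCm38), matched by symbol. Members and lists were chosen with earlier results of these data known. All members are given. Of the other pathway genes, the rule names the 6 largest called changes with a mean of at least 5, and others named were chosen after their values were seen. Results for some of these genes are not reported here. 9 of the 64 other pathway genes were not analysed here. Older symbols were matched through RefSeq synonyms.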

Additional observations from a re-analysis of the deposited data

How the results depend on the processing

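The count of 29 called members ranged from 26 to 31 over all alternatives that kept the threshold of 0.05 alone. Over the same alternatives the count for all genes, 8704 in the main fit, ranged from 7731 to 9496. For the members, edgeR on recovered reads gave 19 higher and 10 lower, as limma did. By its construction, a required log2 size of 1 or more left 11 members, 7 of the other pathway genes and 2589 of all genes. The shared numbers 4, 5 and 6 gave no sign of pairing: deviations from the group mean correlated, between same-numbered libraries, at -0.0936, -0.0303 and -0.17, and with the replicate block 28 members were called, Fads1 (adjusted p 0.115) being the one lost. Values recomputed for 35 called genes numbered 525. The 35 were the 29 members and the 6 largest called changes among other pathway genes with a mean of at least 5. None of the 525 changed direction and 14 lost the call, all of Fads1, Abca1 or Abcg1. These values do not include the authors' own false discovery rate, by which 9 of the 29 members did not pass. Of the 10 members that were not called, 6 changed sign with the library left out: the log2 fold change ran from -0.042 to 0.075 for Srebf2, -0.053 to 0.065 for Mvk, -0.11 to 0.030 for Pmvk, -0.13 to 0.13 for Mvd, -0.019 to 0.078 for Fdft1 and -0.21 to 0.061 for Tm7sf2. Insig1, Ebp, Dhcr7 and Nr1h2 kept their sign in these fits. Pmvk also changed sign under quantile normalization (0.043). The cause was not tested. Read numbers limit the precision for Tm7sf2 (23 to 49 reads per library) and for Nr1h3 in the female-labelled libraries (27 to 29).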
